A study of Mus musculus with 32 samples.

Results

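In immature dendritic cells (iDCs) of Pparg+/- LysCre mice, 79 of the 33012 noncontrol array features (0.239%) were detected with vehicle in all 4 mice and were no longer detected with rosiglitazone (RSG) in at least 3 of them. The members were chosen by their signal-to-noise ratio (S/N) on these arrays, which had to be at least 3 on all 4 vehicle arrays and under 3 on at least 3 of the 4 RSG arrays. Of the 79, 22 were under the limit on all 4 RSG arrays and 57 on 3. The same rule turned round, under the limit with vehicle and detected with RSG, took 175 features. Because these arrays chose the members, every value from Pparg+/- LysCre iDCs is given as a description. Where the number of members past the call threshold on these arrays is given, the share of all features stands beside it and nothing is read from it. The tests concern the iDCs of Pparg fl/- LysCre mice and the macrophages of both genotypes. The main fits that include iDCs took the spread of a feature in part from the arrays that chose the members.

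PPARγ, the product of Pparg, is a nuclear receptor that is activated by lipids and by thiazolidinediones such as RSG. As a heterodimer with RXR it binds response elements near its target genes, which include genes of lipid uptake and storage. In macrophages and DCs, IL-4 raises PPARγ activity, and activated PPARγ is also known to lower the expression of inflammatory genes, in part without binding their DNA directly. DCs present antigen to T cells, and alternatively activated macrophages form in response to IL-4.

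Bone marrow from the femur of 8 C57Bl/6 mice was differentiated for 9 days. Pparg+/- LysCre mice (mice 1, 2, 3 and 4) carry a null and an intact Pparg allele, and Pparg fl/- LysCre mice (mice 5, 6, 7 and 8) carry a null and a loxP-flanked allele; LysCre, which both genotypes carry, expresses Cre recombinase from the lysozyme promoter, so that the flanked allele is removed in myeloid cells and to an extent that was not measured here. Each mouse gave macrophages, grown with M-CSF and IL-4 at 20 ng/ml each, and iDCs, grown with GM-CSF and IL-4 at 20 ng/ml each, and both were treated with vehicle (DMSO:ethanol) or 1 μM RSG, which made 8 groups of 4 arrays. No group was grown without IL-4, and no control carried 2 intact Pparg alleles.

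The files name features by transcript or gene model identifiers. Of the members, 66 carry a Celera gene model identifier (mCG), 9 an AK, 3 a BC and 1 an NM_ accession, and none could be given a gene symbol here, as was possible for 317 of all 33012 features (0.960%). The functions of the members are therefore not described, and none of the PPARγ target, inflammatory, antigen presentation, cell cycle or cell type marker genes listed for this work was found among them. Of those listed genes, Nlrp3, Ear1, Hba-a1 and Sfrp4 had a named feature, so neither the labelled cell types, by their markers, nor the genotypes, by the level of Pparg, were checked here. No sequence is given for the same reason.

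Across the 32 arrays, 13595 to 16683 features were detected. The RSG-treated iDC array of mouse 5 had the fewest of all, and this mouse stood apart in several results below, for which values without it are also given. Whether the genotype label and the recombination of mouse 5 are as stated could not be checked, since no Pparg feature is named. In Pparg+/- LysCre macrophages the median number of all detected features was 15511.5 with vehicle and 13946 with RSG, and its part in the number of members detected there was not tested. RNA came from whole cultures, so fewer cells of a type and less RNA per cell cannot be told apart in any value below. Each group held 4 mice, and this number limits the precision of every comparison.

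The members were dim features in the cells in which they were chosen. Their mean normalized log2 signal in vehicle-treated Pparg+/- LysCre iDCs had a median of 9.42 and ran from 7.78 to 12.34, against a median of 11.48 over the 16620 features tested. The median member lay at the 25.3rd percentile of these features, 2 members lay above the 50th percentile and none above the 75th. The lowest S/N of a member over the 4 vehicle arrays had a median of 3.65, was under 4 for 50 members and reached 6 or more for 8. With RSG the third lowest S/N of a member, which decides its place in the set, had a median of 2.36.

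Several members lay close to the limit on either side. Just inside it, the lowest vehicle S/N was 3.01 for mCG16263.1, 3.03 for mCG15090.1 and 3.04 for mCG120858.1, and the third lowest RSG S/N was 2.96 for mCG54793.2, 2.94 for mCG50335.2 and 2.93 for mCG1551.2. Just outside it, the lowest vehicle S/N was 2.99 for mCG114977.1, 2.98 for mCG3855.1 and 2.97 for mCG140680.1, and the third lowest RSG S/N was 3.01 for mCG115540.1, 3.03 for mCG10258.1 and 3.03 for mCG145567. A step of a few hundredths in S/N therefore parted members from other features. With an S/N limit of 2 or 5 in place of 3 the rule took 87 or 66 features, and with all 4 RSG arrays under 3 it took 22.

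In the arrays that chose them, the signal of most members was lower with RSG. The mean log2 signal with RSG minus that with vehicle had a median of -1.13 over the 79 members and of 0.02 over all features tested, and it was negative for 78 members. It was a difference of at least 1.5-fold for 61 members and less for the other 18, of which 1 had a higher mean with RSG. The 4 RSG values lay below the 4 vehicle values without overlap for 36 members (45.6%), beside 9.85% of all features tested. limma called 21 members lower, beside 2.92% of all features tested, and both counts were fixed in part by the rule, which used the same arrays. The standard deviation that the scanner gives for a signal, which is the divisor of the S/N, was higher with RSG for 54 members and lower for 25, with a median log2 difference of 0.28 against -0.16 over all features tested. Low S/N with RSG thus accompanied a lower signal in most members and a larger standard deviation in many.

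The 6 brightest members in vehicle-treated Pparg+/- LysCre iDCs were mCG132214.1, mCG1338.1, mCG18469.1, mCG145753, mCG21633.2 and mCG130175.1. The log2 signal of mCG132214.1 was 11.88, 12.73, 12.11 and 12.64 with vehicle in mice 1, 2, 3 and 4 and 9.28, 9.14, 9.86 and 9.72 with RSG, so that every RSG value was below every vehicle value. All 4 RSG arrays were under the S/N limit for this member, and its level with vehicle was at least 7.16-fold higher. The feature mCG1338.1 had 10.91, 12.43, 12.55 and 12.21 with vehicle and 9.88, 8.65, 8.72 and 9.66 with RSG, at least 6.97-fold. The feature mCG145753 had 10.79, 11.34, 10.96 and 10.25 with vehicle and 8.27, 8.96, 8.76 and 8.86 with RSG, at least 4.35-fold.

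For mCG21633.2 the values were 10.59, 10.63, 11.08 and 10.48 with vehicle and 8.40, 7.86, 8.25 and 7.67 with RSG, at least 6.28-fold. The other 2 were still detected on 1 RSG array, that of mouse 1 in both. For mCG18469.1 the log2 signal was 11.16, 11.36, 11.28 and 10.80 with vehicle and 9.76, 8.68, 7.62 and 7.50 with RSG, and for mCG130175.1 it was 11.31, 10.05, 9.90 and 11.33 with vehicle and 9.61, 7.56, 6.31 and 7.62 with RSG. None of these 6 members overlapped between vehicle and RSG. Over the 22 members under the limit on all 4 RSG arrays, 21 had a lower bound above 1, between 1.37-fold and 7.52-fold with a median of 3.65-fold. The bound sets the vehicle mean against, for each RSG array, the higher of the member's own value and the lowest detected signal of that array. It was mostly equal to the observed fold of the listed signals, leaves out the spread between mice and is no confidence limit. The same holds for every undetected group whose fold is given with "at least".

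Other features with the same identifier gave a mixed picture. Of the members, 9 share their identifier with 11 further features of the array that are not members, and 7 of these were bright enough to be tested. In Pparg+/- LysCre iDCs their log2 difference, RSG minus vehicle, ran from -1.35 to 0.59 and was negative for 4 of the 7. The second feature of mCG130175.1 had -1.23, beside -2.87 for the member, and was detected on 4 vehicle and 3 RSG arrays. The second feature of mCG22508.1 had -1.35, beside -1.25 for the member, and was detected on all 8 arrays. For mCG116900.1 a second feature was detected on all 8 arrays and had 0.50, against -0.45 for the member, and for mCG127635.2 the second feature had 0.59 against -0.66. The files do not say whether features of an identifier read the same transcript.

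The rule was also applied to 3 mice and read in the mouse left out, which was added after the data had been seen. Chosen without mouse 1, 2, 3 or 4, with at least 2 of the other 3 RSG arrays under the limit, the rule took 254, 222, 170 and 204 features. Of those detected with vehicle in the mouse left out, 33.9%, 41.9%, 49.2% and 67.0% were not detected with RSG, against 9.10%, 10.2%, 12.3% and 12.3% of all features detected with vehicle in that mouse. Among features with a vehicle S/N under 8 in the mouse left out, the shares were 32.6%, 39.6%, 52.4% and 70.0% for the chosen features and 30.53%, 33.97%, 43.02% and 40.51% for all. In the mouse left out, the median log2 change with RSG of the chosen features was -0.27, -0.26, -0.70 and -0.43, and that of all features tested 0.02, 0.03, -0.02 and 0.03. Among the dim features alone, with a vehicle S/N under 8, it was -0.37, -0.44, -0.67 and -0.70 for the chosen and -0.11, -0.14, -0.26 and -0.22 for all. Among the dim features the shares differed by 2.03 to 29.5 percentage points, from which nothing is read. These are the arrays and S/N values that the rule used, so the shares are no test of the set. The chosen features were matched to the others by this S/N limit alone, and the values are a description.

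**Figure D1:**
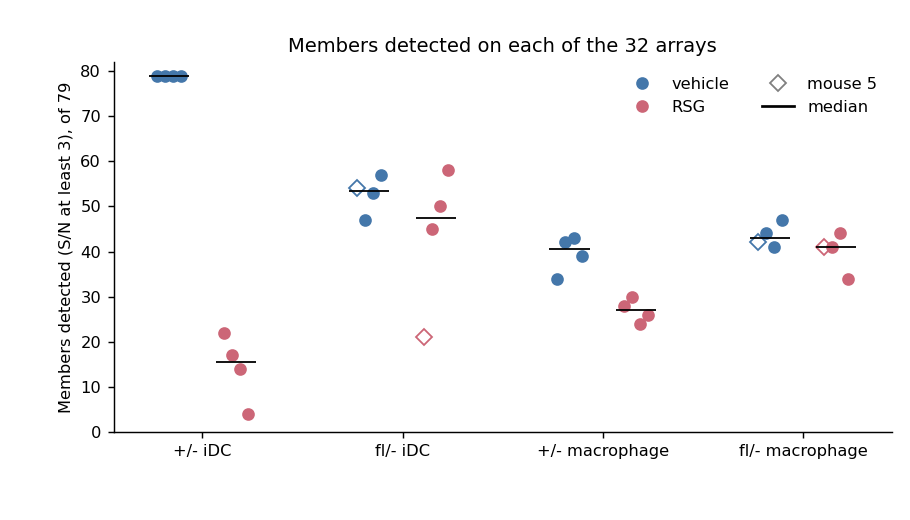
Number of the 79 members with an S/N of at least 3 on each array (vertical axis), for the 4 combinations of genotype and cell type (horizontal axis), with vehicle in blue and RSG in red; open diamonds mark mouse 5 and lines the median of 4 arrays. In Pparg+/- LysCre iDCs, where the members were chosen, all 79 were detected with vehicle and 4 to 22 with RSG, whereas in Pparg fl/- LysCre iDCs the RSG arrays of mice 6, 7 and 8 had 45 to 58 and that of mouse 5 had 21.

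In Pparg fl/- LysCre iDCs most members were detected with vehicle. With vehicle 54, 47, 53 and 57 of the 79 members were detected in mice 5, 6, 7 and 8, and with RSG 21, 45, 50 and 58. The number was lower with RSG in mice 5, 6 and 7 and higher in mouse 8, and mouse 5 had by far the largest difference. Of the members detected with vehicle, 72.2% were not detected with RSG in mouse 5, against 27.7%, 18.9% and 22.8% in mice 6, 7 and 8. The same share over all detected features was 15.5%, 8.39%, 11.0% and 8.73%. The members were dimmer than all features detected, and the part of this in the shares was not tested. Over the 8 arrays of these cells, 6 members were detected on every array, 2 on none and 71 on some.

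The rule itself was fulfilled in these cells by 4 of the 31 members that were detected on all 4 vehicle arrays, where 0.361% of all 12176 features so detected fulfilled it. These 4 are 9.09% of the 44 features that fulfil the rule in Pparg fl/- LysCre iDCs and 5.06% of the members. The members were dim features, many of them near the limit, and the part of this in these shares was not tested. Without mouse 5, with at least 2 of the other 3 RSG arrays under the limit, the rule was again fulfilled by 4 members, then of 113 features. The count depended on the limit. At an S/N limit of 2, 0 of the 87 members then taken fulfilled the rule here, and at 5, 3 of 66 did. With all 4 RSG arrays under 3, 1 of 22 members did.

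Per mouse, the median log2 change of the members with RSG in Pparg fl/- LysCre iDCs was -0.88 in mouse 5, -0.14 in mouse 6, -0.21 in mouse 7 and -0.27 in mouse 8, with a mean of -0.38 ± 0.34 (SD, n = 4). The medians of mice 6, 7 and 8 lay close together, and without mouse 5 the mean was -0.21 ± 0.06 (SD, n = 3). In the Pparg+/- LysCre iDCs that chose the members, the medians were -1.03, -0.91, -1.36 and -1.16, and the choice itself makes these values low. In each mouse the median over all features tested stayed between -0.02 and 0.04 in iDCs. Mice 5 and 6 were scanned together, as were mice 7 and 8, and the mean of the mouse medians was -0.51 in the former pair and -0.24 in the latter.

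**Figure D2:**
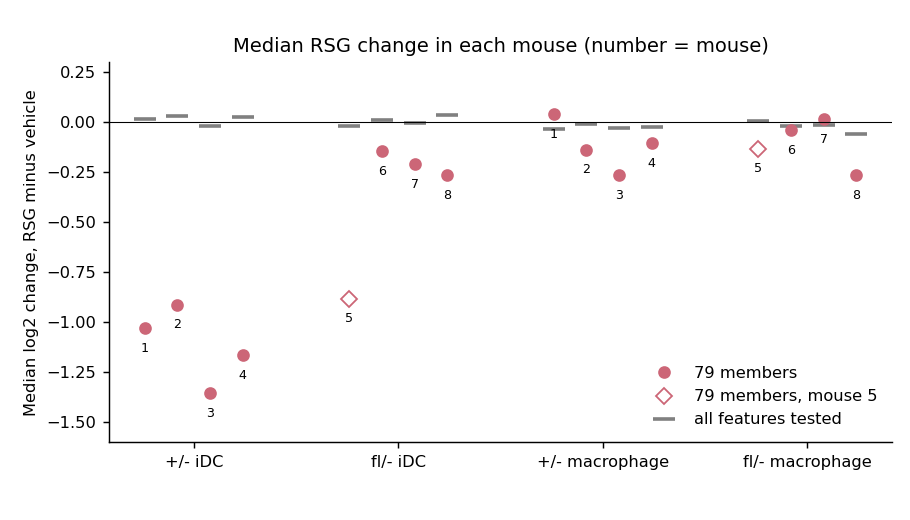
Median log2 change with RSG (RSG minus vehicle of the same mouse, vertical axis) over the 79 members (red; open diamond for mouse 5) and over all 16620 features tested (grey dashes), for each mouse in each combination of genotype and cell type; numbers name the mouse. In Pparg fl/- LysCre iDCs mouse 5 (-0.88) lay apart from mice 6, 7 and 8 (-0.14 to -0.27), and in macrophages the mouse medians ran from -0.26 to 0.04.

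Tested across all features, RSG lowered 5 of the 79 members in Pparg fl/- LysCre iDCs and raised none, where 0.325% of all features tested were called lower (limma, at least 1.5-fold with a Benjamini-Hochberg adjusted p under 0.05). The spread in this fit came from all 16 iDC arrays, which include those that chose the members. Fewer of these calls held in a fit of only the arrays compared. The log2 change was negative for 56 members (70.9%), beside 48.6% of all features tested, and its median was -0.35 against 0.01. Here and below the members include 13 that were tested only through their detection in vehicle-treated Pparg+/- LysCre iDCs. With signals raised to a floor at the 10th percentile of detected signals, the members' median was -0.10. At an unadjusted p under 0.05 there were 16 members lower and 2 higher (20.3% and 2.53%), beside 5.12% and 5.79% of all features. Without mouse 5 the median was -0.11, 44 members were negative and 3 were called lower, where 0.397% of all features were called. With the mouse as a block 7 members were called, beside 1.22% of all features, and 4 of them, mCG126570.1, mCG132214.1, mCG55784.2 and mCG120049.1, were not called without it. The feature mCG126570.1 had a change of -1.78 (limma with the block, adjusted p = 0.0206) and mCG55784.2 of -1.35 (limma with the block, adjusted p = 0.0406), and both were among the 3 called without mouse 5, at -1.72 and -1.04 (limma, adjusted p = 0.0326 and 0.0147).

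The 5 called members were mCG130175.1, mCG1338.1, mCG9587.2, mCG18469.1 and mCG21633.2, and for all 5 the RSG values of the 4 mice lay below the vehicle values without overlap. The feature mCG130175.1 had a log2 signal of 11.52, 11.29, 11.24 and 10.79 with vehicle in mice 5, 6, 7 and 8 and of 6.10, 7.94, 8.61 and 7.26 with RSG. It was detected on all 4 vehicle arrays and on 1 RSG array, that of mouse 7. Its change was -3.73 ± 0.64 (SE; limma, adjusted p = 0.0182). Without mouse 5 it was -3.17, with an adjusted p of 0.0829 in limma, and the call was also lost without mouse 6 or 8 (limma, adjusted p = 0.0861 and 0.106).

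The feature mCG21633.2 had the smallest p of the members. Its log2 signal was 9.45, 9.29, 9.23 and 9.76 with vehicle and 7.24, 7.47, 7.83 and 8.17 with RSG, where no array detected it. By the listed signals the level was at least 3.38-fold lower (limma, adjusted p = 0.00372). Without mouse 5 the call held, with a log2 change of -1.61 (limma, adjusted p = 0.01998), and it held without each of the other mice. With the signal floor its change was -0.54 and the call was lost (limma, adjusted p = 0.0692), as it was in a fit of only the 8 arrays compared (limma, adjusted p = 0.0616). The feature mCG18469.1 had 11.46, 10.99, 11.24 and 11.17 with vehicle and 8.44, 9.22, 9.15 and 9.16 with RSG, a change of -2.22 ± 0.39 (SE; limma, adjusted p = 0.0185). It remained detected with RSG in mice 6, 7 and 8, and without mouse 5 the change was -1.96 with an adjusted p of 0.0989 in limma. The call was also lost without mouse 6, 7 or 8 (limma, adjusted p = 0.0859, 0.0769 and 0.106).

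For mCG1338.1 the log2 signal was 13.00, 11.79, 11.79 and 14.53 with vehicle and 9.57, 9.66, 10.10 and 10.46 with RSG, a change of -2.83 ± 0.56 (SE; limma, adjusted p = 0.0319). For mCG9587.2 it was 12.07, 10.87, 11.39 and 12.48 with vehicle and 8.70, 9.32, 9.80 and 9.16 with RSG, a change of -2.46 ± 0.46 (SE; limma, adjusted p = 0.0245). The vehicle values of both members varied widely between mice, and no RSG value reached them. Neither call held with the mouse as a block (limma, adjusted p = 0.0554 and 0.0754) or without mouse 5 (limma, adjusted p = 0.147 and 0.135). The call of mCG1338.1 was also lost without mouse 2, 3, 4, 6, 7 or 8 (limma, adjusted p from 0.0609 to 0.105), and that of mCG9587.2 without mouse 2, 6, 7 or 8 (limma, adjusted p from 0.0609 to 0.157). The calls of mCG130175.1, mCG21633.2 and mCG18469.1 held with the block (limma, adjusted p = 0.0206, 0.0122 and 0.0382). None of the 5 calls held under the methods' t-test with adjustment, which called none of all features tested here. In a fit of only the 8 arrays compared the call of mCG18469.1 alone held.

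**Figure D3:**
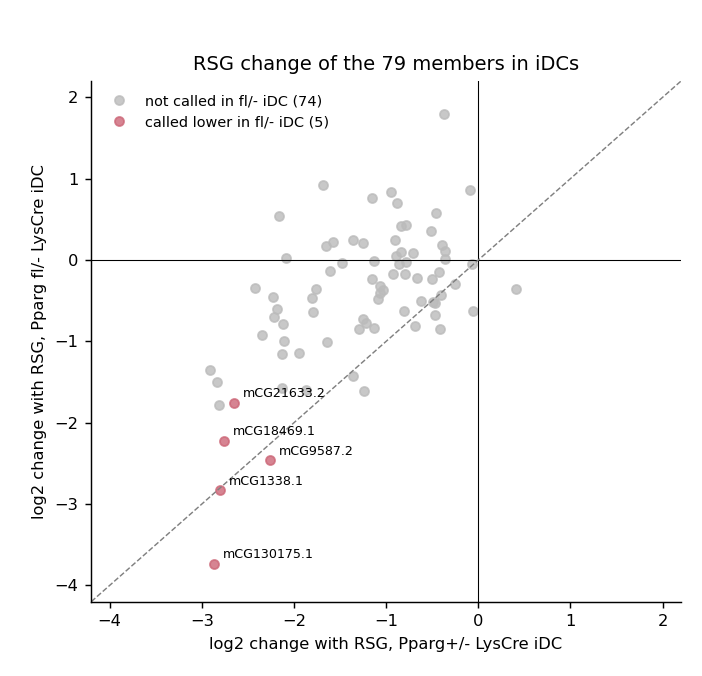
Log2 change with RSG of each of the 79 members in Pparg+/- LysCre iDCs (horizontal axis, the arrays that chose the members) and in Pparg fl/- LysCre iDCs (vertical axis); the dashed line marks equal changes, and the 5 members called lower in Pparg fl/- LysCre iDCs are red and named. The median is -1.13 on the horizontal axis, where the choice favours low values, and -0.35 on the vertical axis.

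The changes of the members in the iDCs of both genotypes were set side by side as a description, since the rule used the arrays of Pparg+/- LysCre mice. Across the 79 members Pearson's r between the changes was 0.60 and Spearman's rho 0.50, and without mouse 5 they were 0.63 and 0.54. Pearson's r over all 16620 features tested was 0.40, and 0.32 without mouse 5. These are correlations across features of the same arrays and not over independent replicates. Against the changes in Pparg+/- LysCre and Pparg fl/- LysCre macrophages, r across the members was -0.02 and 0.10.

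Some members that were under the limit with RSG in Pparg+/- LysCre iDCs were detected with RSG in Pparg fl/- LysCre iDCs. The feature mCG120049.1, which was at 8.03, 8.18, 7.80 and 8.08 with RSG in mice 1, 2, 3 and 4, was at 9.69, 10.24, 10.77 and 10.99 in mice 5, 6, 7 and 8, all detected. With vehicle it was at 9.82, 10.43, 10.27 and 10.99 in the former mice and at 10.57, 11.40, 11.58 and 11.80 in the latter. Its change with RSG in Pparg fl/- LysCre iDCs was -0.92 ± 0.31 (SE; limma, adjusted p = 0.269), and with the mouse as a block it was called (limma, adjusted p = 0.0492). The feature mCG132214.1 was at 9.32 with RSG in mouse 5, not detected, and at 12.01, 12.48 and 12.86 in mice 6, 7 and 8, where it was detected. Its change with RSG in Pparg fl/- LysCre iDCs was -1.50 ± 0.71 (SE; limma, adjusted p = 0.464), with vehicle at 11.21, 13.79, 14.02 and 13.64, and mouse 5 was low under both treatments. With the mouse as a block its change was -1.50 ± 0.24 and it was called (SE; limma, adjusted p = 0.0382). For mCG145753 the RSG values were 9.56, 10.36, 10.91 and 10.38 and the vehicle values 11.11, 11.28, 11.05 and 10.89, a change of -0.78 ± 0.27 (SE; limma, adjusted p = 0.269).

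Between the genotypes, 16 members were higher in RSG-treated Pparg fl/- LysCre iDCs than in RSG-treated Pparg+/- LysCre iDCs by the same threshold, beside 3.29% of all features tested, and 3 were lower with vehicle, beside 1.55%. Both comparisons use the arrays that chose the members, the genotypes were scanned in separate batches, and these counts are given without a reading.

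In macrophages of both genotypes fewer members were detected than in iDCs with vehicle. With vehicle 34, 42, 43 and 39 members were detected in Pparg+/- LysCre macrophages and 42, 44, 41 and 47 in Pparg fl/- LysCre macrophages, and with RSG 28, 30, 24 and 26 and then 41, 41, 44 and 34. In Pparg+/- LysCre macrophages the RSG counts lay below the vehicle counts in all 4 mice. The number of all detected features was also lower with RSG there, as it was in each mouse in Pparg fl/- LysCre macrophages. Of the members detected with vehicle there, 38.2%, 42.9%, 46.5% and 46.2% were not detected with RSG, against 15.9%, 13.6%, 16.7% and 17.8% of all features. In Pparg fl/- LysCre macrophages the shares were 21.4%, 25.0%, 19.5% and 36.2%, against 11.4%, 13.1%, 14.9% and 17.5%. The members were dimmer than all features detected, and the part of this in the shares was not tested.

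The detection rule was fulfilled in Pparg+/- LysCre macrophages by 4 of the 22 members detected on all 4 vehicle arrays (18.2%), where 1.84% of all 12691 features so detected fulfilled it, and in Pparg fl/- LysCre macrophages by 1 of 22 (4.55%), where 0.943% of 12723 did. These members are 1.72% of the 233 features that fulfil the rule in Pparg+/- LysCre macrophages and 0.833% of the 120 in Pparg fl/- LysCre macrophages. The part of the members' low signal in these shares was not tested. At an S/N limit of 2, 4 and 2 of the 87 members then taken fulfilled it. With all 4 RSG arrays under 3, 0 of 22 members did in either genotype.

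RSG lowered 1 member in Pparg+/- LysCre macrophages and raised none, where 0.626% of all features tested were called lower. The share of members called lower, 1.27%, is that of 1 feature. The median log2 change over the members was -0.19 against -0.03 over all features tested, and 47 members were negative (59.5% against 55.6%). Median scaling of each array moved the median of all features tested to -0.18 and left that of the members at -0.19, so that the members' median minus that of all features was then -0.01 in place of -0.16. At an unadjusted p under 0.05, 6 members were lower and 3 higher (7.59% and 3.80%), close to the 6.99% and 4.67% of all features. Per mouse the members' median change was 0.04, -0.14, -0.26 and -0.11. The feature mCG9587.2, called in Pparg fl/- LysCre iDCs, was not called here. Its groups did not overlap, and its change was -2.21 ± 0.58 (SE, limma, adjusted p = 0.0887). In Pparg fl/- LysCre macrophages its change was -1.89 ± 0.58 (SE), also not called.

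The called member was mCG12056.2, with a log2 signal of 9.16, 10.41, 10.21 and 9.01 with vehicle in mice 1, 2, 3 and 4 and of 8.26, 7.10, 7.53 and 8.01 with RSG. It was detected on all 4 vehicle arrays and on 1 RSG array, that of mouse 1, and the groups did not overlap. Its change was -1.97 ± 0.40 (SE; limma, adjusted p = 0.0299). The call did not hold with the mouse as a block (limma, adjusted p = 0.0740), which called mCG51765.2 and BC028801.1 instead (log2 changes of -1.33 and -0.61; 2.53% of members beside 2.97% of all features), nor without mouse 1, 2, 3, 4 or 6 (limma, adjusted p = 0.0659, 0.212, 0.179, 0.0572 and 0.0557), and with the signal floor the change was -0.81 (limma, adjusted p = 0.293). In Pparg fl/- LysCre macrophages the same feature was at 8.72, 9.56, 9.94 and 9.84 with vehicle and at 9.51, 8.71, 9.33 and 8.23 with RSG, and these groups overlapped.

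In Pparg fl/- LysCre macrophages limma called none of the 79 members and 0.0% of all features tested, 0 of 16620. At an unadjusted p under 0.05 it took 3 members lower (3.80%) and none higher, beside 2.03% and 0.963% of all features, and the methods' t-test took 2 lower without adjustment, beside 404 of all 16620 features in either direction. The median log2 change was -0.08 over the members and -0.01 over all features tested, and 43 members were negative. Under median scaling these medians were -0.05 and -0.13, so that the members then lay above all features. Per mouse the members' median change was -0.13, -0.04, 0.01 and -0.26 in mice 5, 6, 7 and 8.

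**Figure D4:**
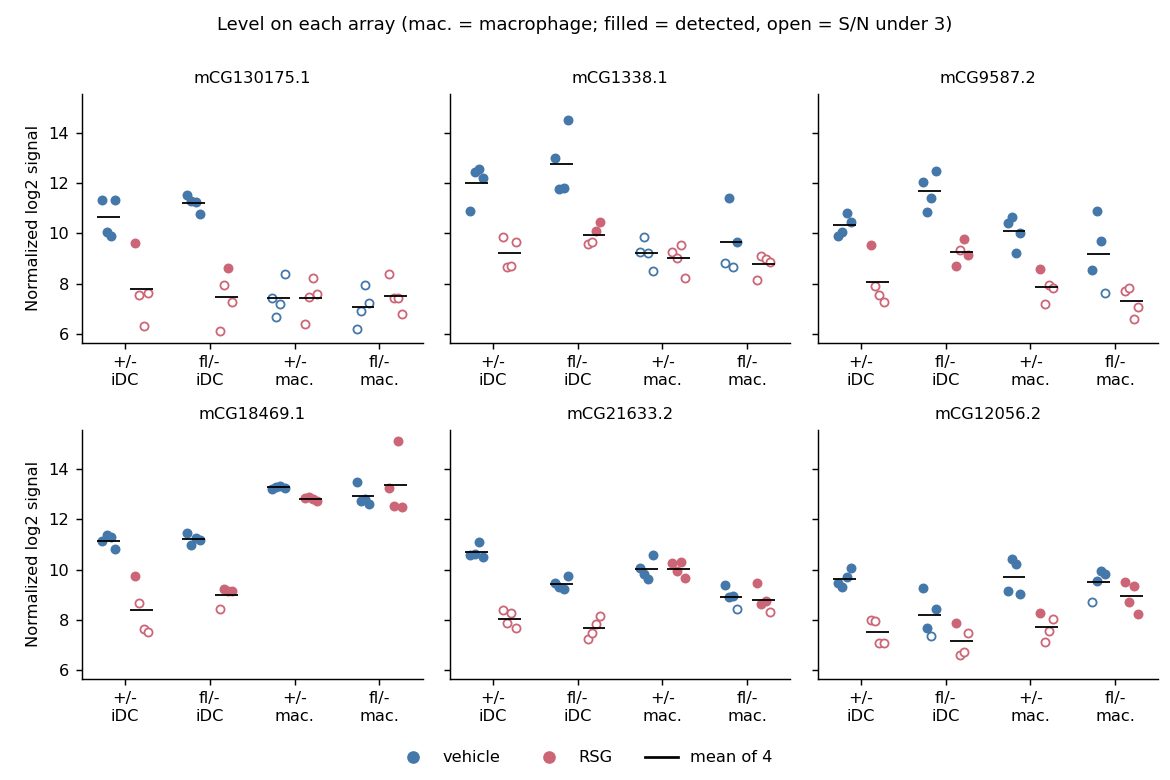
Normalized log2 signal (vertical axis) on each array for the 5 members that RSG lowered in Pparg fl/- LysCre iDCs and for mCG12056.2, in the 4 combinations of genotype and cell type (horizontal axis), with vehicle in blue and RSG in red; filled points were detected, open points had an S/N under 3, and lines are means of 4 arrays. The feature mCG130175.1 was detected in iDCs only, mCG18469.1 was brightest in macrophages, and mCG21633.2 stayed at 8.33 to 10.59 in macrophages with either treatment.

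The difference in RSG effect between iDCs and macrophages of Pparg fl/- LysCre mice passed the test for 1 member, mCG130175.1, beside 0.108% of all features tested. Its log2 change with RSG was 4.16 lower in iDCs than in macrophages (-4.16 ± 0.82, SE; limma, adjusted p = 0.0345). In the macrophages of these mice it was not detected on any array, with log2 values of 6.18, 6.91, 7.96 and 7.23 with vehicle and of 8.38, 7.41, 7.42 and 6.79 with RSG, so that the macrophage side of this difference is a change in noise level and the result rests on the iDC arrays. Without mouse 5 the difference was -3.01 with an adjusted p of 0.212 in limma, and the call was also lost without mouse 2, 3, 4, 6, 7 or 8 (limma, adjusted p from 0.0506 to 0.193). The median of this difference was -0.37 over the members, negative for 53 of them, and 0.03 over all features tested. Without mouse 5 the median over the members was -0.12.

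Genotype was compared in the macrophages, which took no part in the choice. The genotypes were scanned in separate batches, so genotype cannot be told apart from scan batch in these comparisons. With vehicle no member differed between Pparg fl/- LysCre and Pparg+/- LysCre macrophages (limma), beside 0.156% of all features tested, and 7 members were lower and 7 higher at an unadjusted p under 0.05 (8.86% each), below the 12.1% and 11.3% of all features. The methods' t-test took 5 lower and 6 higher without adjustment, beside 3713 of all 16620 features in either direction. With the mouse as a block limma called 2 members, mCG140126 with a log2 difference, fl/- minus +/-, of 1.42 and mCG48906.2 with -0.70, a share of 2.53% beside 2.05% of all features. With RSG 2 members differed, beside 9.33% of all features tested, a share of members of 2.53%. The block called 3 members with RSG, a share of 3.80% beside 10.6% of all features. It added mCG10796.1, with a difference of 1.58 (limma with the block, adjusted p = 0.0394). The share of members called with RSG was thus below that of all features.

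The feature mCG21633.2 was lower in RSG-treated Pparg fl/- LysCre macrophages, at 9.47, 8.64, 8.75 and 8.33 in mice 5, 6, 7 and 8 against 10.25, 9.93, 10.32 and 9.65 in mice 1, 2, 3 and 4, without overlap and with a difference of -1.24 ± 0.27 (SE; limma, adjusted p = 0.0131). The call was lost without mouse 1, 6 or 7 (limma, adjusted p = 0.0560, 0.0537 and 0.0566). With vehicle it was at 9.37, 8.91, 8.94 and 8.42 against 10.07, 9.82, 9.63 and 10.59, also without overlap. The other called member, mCG120049.1, was named after its values had been seen, because its groups overlapped. With RSG it was at 8.60, 10.14, 10.41 and 9.57 in Pparg fl/- LysCre macrophages and at 6.87, 7.97, 7.84 and 8.94 in Pparg+/- LysCre macrophages, where 1 array detected it, a difference of 1.77 ± 0.42 (SE; limma, adjusted p = 0.0178). Mouse 5 was the lowest of its group there, and the call was lost without mouse 1, 2, 3, 6, 7 or 8 (limma, adjusted p from 0.0517 to 0.0700) and with the signal floor, where the difference was 0.86 (limma, adjusted p = 0.0527).

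Leaving out mouse 5 raised the genotype counts in macrophages. Without it limma called 11 members with vehicle (6 lower and 5 higher in Pparg fl/- LysCre) and 11 with RSG (5 lower and 6 higher), 13.9% of members each. Of all features tested 15.0% and 20.4% were called, so the share of members with vehicle was close to that of all features. With vehicle the lower ones were mCG51765.2 (-1.98), mCG131650 (-1.68), mCG148270 (-1.38), mCG21633.2 (-1.27), mCG19986.3 (-0.76) and mCG48906.2 (-0.73). The higher ones were mCG120049.1 (1.67), mCG15086.3 (1.51), mCG140126 (1.46), mCG11692.2 (1.21) and mCG131444.1 (0.91). Of these, mCG21633.2, mCG131650, mCG19986.3, mCG11692.2, mCG131444.1, mCG120049.1 and mCG15086.3 were also called with RSG without mouse 5, in the same direction.

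Cell types were compared in Pparg fl/- LysCre mice. Between vehicle-treated iDCs and macrophages, limma called 21 members higher in iDCs (26.6%) and 12 lower (15.2%), beside 12.4% and 15.2% of all features tested. The median log2 difference, iDC minus macrophage, was 0.22 over the members and -0.06 over all features tested; under median scaling these were 0.25 and -0.20. All members were detected in vehicle-treated Pparg+/- LysCre iDCs by choice, so the excess on the side of iDCs cannot be told apart from the choice. With RSG the counts were 13 higher and 13 lower (16.5% each), beside 12.0% and 12.6%, with medians of 0.04 and -0.02. Of the 79 members 22 were called with both treatments, 12 higher and 10 lower in iDCs in both, 11 with vehicle only, 4 with RSG only and 42 with neither. The share of all features called with both treatments is not given here, so nothing is read from these counts.

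Members higher in iDCs included 3 that were not or hardly detected in macrophages. The feature mCG126570.1 was at 9.81, 12.51, 12.70 and 12.46 in vehicle-treated iDCs of mice 5, 6, 7 and 8 and at 7.87, 7.38, 7.75 and 7.54 in their macrophages, none detected, so that it was at least 18.8-fold higher in iDCs (limma, adjusted p = 7.22e-07). Mouse 5 lay apart here, and without it the log2 difference was 5.00 in place of 4.23 (limma, adjusted p = 4.04e-11). The feature mCG16802.2 was at 11.29, 10.43, 10.33 and 11.50 in iDCs and at 5.76, 6.59, 6.62 and 7.84 in macrophages, none detected, at least 17.3-fold (limma, adjusted p = 3.35e-07). The feature mCG1551.2 was at 11.16, 11.56, 12.36 and 13.40 in iDCs and at 7.19, 7.52, 8.76 and 8.37 in macrophages, where 1 array detected it, a log2 difference of 4.16 ± 0.62 (SE; limma, adjusted p = 4.85e-06). None of these 3 overlapped between the cell types with vehicle.

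With RSG the largest differences toward iDCs among members whose groups did not overlap were in mCG1038165.1, mCG4873.2 and mCG9587.2. The feature mCG1038165.1 was at 10.61, 10.08, 11.23 and 11.61 in RSG-treated iDCs and at 6.10, 8.22, 7.74 and 8.27 in RSG-treated macrophages, none detected, at least 9.76-fold higher (limma, adjusted p = 0.000121). The feature mCG4873.2 was at 8.16, 11.40, 12.06 and 10.56 in iDCs, detected in mice 6, 7 and 8, and at 7.45, 8.15, 7.03 and 6.92 in macrophages, none detected, at least 8.92-fold (limma, adjusted p = 3.38e-05). Without mouse 5 the log2 difference was 3.97 in place of 3.16 (limma, adjusted p = 3.94e-07), and without mouse 7 it was 2.53 (limma, adjusted p = 0.00203). The feature mCG9587.2 was at 8.70, 9.32, 9.80 and 9.16 in iDCs, detected in mice 5, 7 and 8, and at 7.71, 7.83, 6.61 and 7.08 in macrophages, none detected. By the listed signals it was at least 3.83-fold higher in iDCs (limma, adjusted p = 0.00595). This call was lost without mouse 7 (limma, adjusted p = 0.0824) and with the signal floor, where the log2 difference was 0.40 (limma, adjusted p = 0.444). The level of mCG1038165.1 was thus above that of macrophages in all 4 mice, whereas in RSG-treated Pparg+/- LysCre iDCs mCG1038165.1 was at 6.63, 7.15, 8.85 and 8.95.

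The 3 members with the largest differences toward macrophages with vehicle were mCG4179.1, BC028801.1 and mCG48906.2. The feature mCG4179.1 was at 12.54, 11.84, 12.09 and 12.17 in vehicle-treated macrophages of mice 5, 6, 7 and 8 and at 9.54, 7.45, 7.69 and 7.72 in their iDCs, none detected, at least 16.7-fold lower in iDCs (limma, adjusted p = 7.38e-10). Without mouse 5, which lay apart in iDCs, the log2 difference was -4.41 in place of -4.06 (limma, adjusted p = 5.39e-11). In vehicle-treated Pparg+/- LysCre iDCs it was at 10.29, 9.82, 10.24 and 9.64 and detected, and with RSG at 9.28, 7.54, 8.25 and 7.88. The feature BC028801.1 was at 12.54, 12.72, 12.46 and 12.58 in macrophages and at 9.24, 9.84, 9.00 and 8.94 in iDCs, a difference of -3.32 ± 0.28 (SE; limma, adjusted p = 2.95e-10). The feature mCG48906.2 was at 11.61, 11.38, 11.42 and 11.71 in macrophages and at 9.01, 8.39, 8.70 and 8.56 in iDCs, a difference of -2.87 ± 0.22 (SE; limma, adjusted p = 5.82e-11). Levels within a group were close together for all 3, apart from mouse 5 for mCG4179.1 in iDCs.

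With RSG the largest differences toward macrophages were in mCG18469.1, mCG4179.1 and mCG50335.2. The feature mCG18469.1 was at 13.26, 12.53, 15.12 and 12.49 in RSG-treated Pparg fl/- LysCre macrophages and at 8.44, 9.22, 9.15 and 9.16 in iDCs, a difference of -4.36 ± 0.42 (SE; limma, adjusted p = 4.89e-09). With vehicle its values were 13.48, 12.73, 12.83 and 12.60 in macrophages and its difference -1.70 ± 0.42 (SE; limma, adjusted p = 0.00202). In these mice the macrophage levels of the treatments thus overlapped while the iDC levels did not. In Pparg+/- LysCre macrophages it was at 13.23, 13.30, 13.32 and 13.24 with vehicle and at 12.86, 12.87, 12.80 and 12.72 with RSG, without overlap. The change there was -0.46 (limma, adjusted p = 0.812). For mCG18469.1 the difference in RSG effect between the cell types of Pparg fl/- LysCre mice was -2.66 ± 0.60 (SE; limma, adjusted p = 0.0687). The feature mCG4179.1 was at 12.43, 11.52, 11.96 and 11.67 in RSG-treated macrophages and undetected in RSG-treated iDCs, at least 17.7-fold lower (limma, adjusted p = 5.54e-10). The feature mCG50335.2 was at 11.08, 12.27, 12.00 and 11.87 against 7.63, 10.18, 7.78 and 8.63, none detected, at least 9.49-fold lower in iDCs (limma, adjusted p = 2.22e-05).

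**Figure D5:**
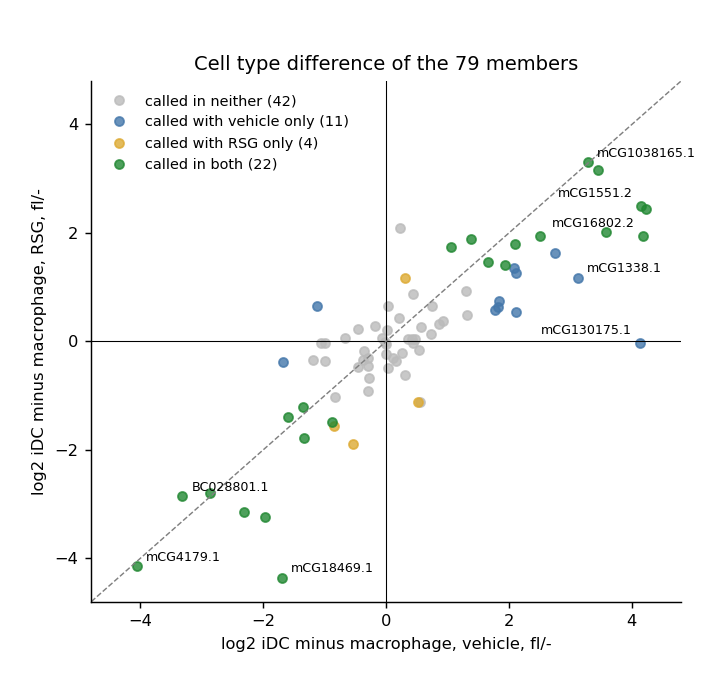
Log2 difference between iDCs and macrophages of Pparg fl/- LysCre mice (iDC minus macrophage) for each of the 79 members, with vehicle on the horizontal and with RSG on the vertical axis; colours give the comparisons in which limma called the member, and the dashed line marks equal differences. Members called with both treatments lie at the lower left and upper right, and mCG130175.1 is at 4.14 with vehicle and at -0.02 with RSG.

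Detection over the 16 macrophage arrays divided the members into those seen throughout, those never seen and a large middle. Detected on all 16 were 9 members: BC028801.1, BC051521.1, mCG132214.1, mCG18469.1, mCG19986.3, mCG23665.3, mCG4179.1, mCG48906.2 and mCG9825.3. RSG minus vehicle, their median log2 difference in macrophages was -0.19 for Pparg+/- LysCre and -0.23 for Pparg fl/- LysCre mice, and it was -0.47 in the iDCs of the latter. The macrophage values are a description, since detection on the same arrays set these 9 apart. Detected on none of the 16 were 5 members: mCG126570.1, mCG129050.1, mCG130175.1, mCG22508.1 and mCG4873.2. In iDCs of Pparg fl/- LysCre mice their median difference, RSG minus vehicle, was -0.70. Of these 5, limma called mCG130175.1 lower there, and it called mCG126570.1 with the mouse as a block and without mouse 5. The other 65 members were detected on 1 to 15 macrophage arrays.

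Over all 8 tests 37 of the 79 members (46.8%) were called at least 1 time, beside 37.4% of all features tested. All 37 were called for cell type, with vehicle, with RSG or with both, and 42 members were called in no test.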

How the data were processed

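RNA of 32 cultures from 8 mice was hybridised as DIG-labeled cRNA to single-color Applied Biosystems chemiluminescence arrays; the methods of the study describe other arrays. The authors deposited for each array, in scanner output, a linear signal intensity, its standard deviation and the S/N, a score per feature, without scaling between arrays. An S/N above 1 was the quotient of signal and standard deviation; at 1 or less the listed signal was the standard deviation itself for all but 0.132% of values, so that 35.8% to 43.9% of the features of an array carry a noise level. A table of ratios was deposited too, each signal scaled per array and divided by the median of the feature, with column medians of 0.951 to 1.06; what scaled each array stays unknown, and 1.17% of its values lay over 0.05 (log2) from this reading. The software versions that made these files are not given in the sources used here.

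From the deposited signals, log2 values were quantile normalized over all 32 arrays. Tested were the 16620 features that reached an S/N of 3 in 3 or more of the 4 mice of any group. All 79 members passed, 13 of them through vehicle-treated Pparg+/- LysCre iDCs alone and 66 also through another group. The linear models of limma 3.58.1 (R 4.3.3) had 1 coefficient for each group, within a cell type on its 16 arrays and across cell types on all 32; a call needed a difference of 1.5-fold or more and an adjusted p under 0.05, by Benjamini-Hochberg over all features tested. Where no array of a group detected a member, the fold is given with "at least". It is a bound on the listed signals that leaves out the spread between mice. The fit was tested on simulated data without correlation between the arrays of a mouse. Without a block it called 38% to 60.5% of 200 features shifted by 1 (log2), depending on the comparison. A change of this size was thus often missed. Python 3.11.15, numpy 2.4.6, pandas 2.3.3 and matplotlib 3.10.9 were used for tables and figures.

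By the labels a mouse gave all arrays that bear its number. Deviations from group means had a median correlation of 0.284 (0.00953 to 0.623) between arrays of a mouse and cell type and of -0.0200 between mice, and Pearson's r between arrays of a group was 0.943 to 0.981. The fit with the mouse as a replicate block was an alternative. The 4 scan batches held 2 mice of 1 genotype each, so genotype cannot be told apart from batch. In an alternative fit the batch was a block, random for genotype.

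The members, the lists and the tests were chosen with earlier results of these data known. Members named are the 6 brightest, those nearest the S/N limit and, per comparison, the called members without overlap that had the largest differences, up to 3 in each direction; further called members are named where a count is 5 or fewer or a set of them is listed, chosen after their values were seen. Alternatives were median scaling, the deposited ratios, no detection filter, a floor at the 10th percentile of detected signals, only the arrays compared, the blocks, no fold threshold, the methods' t-test and leaving out each mouse. The rule applied without mouse 5 and the rule on 3 mice were added after seeing the data.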

Additional observations from a re-analysis of the deposited data

Results flagged for a closer look

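Among 54 groups of 4 mice examined for a value that lies apart, 4 had such a value, each time in mouse 5 of the Pparg fl/- LysCre mice; by chance about 1 group in 20 would. Some of these groups come from the same arrays and are not independent, so nothing is read from this number. For the members' median RSG change in iDCs, this mouse had -0.88, and the distance to its neighbour took up 0.836 of the span of the 4 values. The same quotient was 0.870 for mCG4179.1 in vehicle-treated iDCs (9.54), 0.917 for mCG126570.1 in vehicle-treated iDCs (9.81) and 0.919 for mCG18469.1 in RSG-treated iDCs (8.44).

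The RSG effect on mCG130175.1 differed between iDCs and macrophages of Pparg fl/- LysCre mice by -4.16 on the log2 scale (limma, adjusted p = 0.0345), with no macrophage array of these mice above the S/N limit.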

How the results depend on the processing

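For RSG in Pparg fl/- LysCre iDCs the 5 members called became 2 with no detection filter, 1 with only the arrays compared and 0 under the methods' t-test with adjustment (11 without it), and 1 to 5 when each mouse was left out, with 3, 1, 2 and 1 without mice 5, 6, 7 and 8 and 3 without mouse 2. For RSG in Pparg+/- LysCre macrophages the 1 member called became 2 under median scaling, 2 in the deposited ratios, 0 with no filter, 0 with the signal floor, 2 with only the arrays compared, 2 with the replicate block and 0 under the adjusted t-test (10 without adjustment), and 0 to 2 when each mouse was left out (0 without mouse 1, 2, 3 or 4, and 2 without mouse 5). Of all features this t-test called 199 with adjustment and 2554 without in these macrophages. For RSG in Pparg fl/- LysCre iDCs it called 0 of all features with adjustment and 1200 without. For genotype in vehicle-treated macrophages 0 became 2 with the signal floor and 2 with the replicate block, and 0 to 11 when each mouse was left out (11 without mouse 5). With RSG, 2 became 1 with only the arrays compared and 0 under the adjusted t-test (11 without adjustment), and 0 to 11 when each mouse was left out (0 without mouse 1, 6 or 7, 1 without mouse 2 and 11 without mouse 5). For genotype in RSG-treated macrophages the t-test called 187 of all features with adjustment and 4275 without. For cell type with RSG 26 became 12 under the adjusted t-test, which called 2621 of all features. For RSG in iDCs against RSG in macrophages of Pparg fl/- LysCre mice 1 became 0 with no filter, 2 with the signal floor, 0 with only the arrays compared and 0 under the adjusted t-test (12 without adjustment), and it was 0 to 1 when each mouse was left out (1 without mouse 1 and 0 without each of the others). Of all features the t-test called 0 here with adjustment and 1720 without. What lies behind these moves was not tested, and nothing is read from counts whose share of all features is not given.

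The 94 other counts of members called stayed within 1.5 times, and the replicate block moved no other count by more than that (7, 0, 3, 35, 29 and 1 for RSG in Pparg fl/- LysCre iDCs and macrophages, genotype with RSG, cell type with vehicle and with RSG, and the difference between cell types). In the same order the block called 1.22%, 0.0301%, 10.6%, 29.5%, 26.5% and 0.307% of all features. With all 4 RSG arrays under the limit the rule took 22 features, of which 1 fulfilled it so in Pparg fl/- LysCre iDCs, 0 in Pparg+/- LysCre macrophages and 0 in Pparg fl/- LysCre macrophages; at an S/N of 2 the numbers in Pparg fl/- LysCre iDCs and macrophages were 0 and 2. For the named calls alone, 285 values under the alternatives kept the call, 72 lost it and none reversed. Signal over background is a limit: many members lie within a few units of S/N of the limit, where a listed signal is in part noise, and with the signal floor the members' median change was -0.10 for RSG in Pparg fl/- LysCre iDCs and 0.00 in macrophages.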
